A study of Mus musculus with 4 samples.

Results

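The genes of cholesterol and lipid metabolism were described in m6A sequencing of mouse bone-marrow-derived macrophages after co-culture with the mouse colon carcinoma line MC38. The 38 genes were chosen by symbol, for what they are known to do. No value served as a filter, but earlier results of these data were known. All 38 had an m6A peak in at least 1 genotype, among 14798 gene symbols with a peak. They fall into 5 roles, with 6 regulators of the SREBP pathway, 10 genes of sterol synthesis, 6 of fatty acid synthesis, 7 of the LXR pathway and sterol efflux, and 9 of lipid uptake, storage and oxidation. Marrow from C57BL/6 mice was differentiated for 7 days in M-CSF, which turns progenitors into macrophages, and MC38 cells were then present for 24 h. Both genotypes carried floxed Mettl3 alleles (Mettl3fl/fl). The group called WT below carried these alleles alone, and the group called cKO also carried LyzM-cre, a Cre recombinase driven in myeloid cells by the lysozyme M gene's promoter. Mettl3 encodes the methyltransferase that places N6-methyladenosine (m6A) on messenger RNA. For each genotype, 1 library was made from RNA fragments bound by an antibody to m6A (IP) and 1 from the fragments that went into that step (input). The labels do not say whether the MC38 cells were removed before RNA extraction, nor how many animals gave the marrow.

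Macrophages take up lipoproteins and dying cells and must store, export or burn the lipid they receive. SREBP transcription factors are held in the endoplasmic reticulum by Insig proteins. Scap, which senses sterol, escorts them to the Golgi when sterol is low. There the protease encoded by Mbtps1 makes the first of the cuts that free them. Freed SREBP factors switch on the genes that make sterols and fatty acids. LXR nuclear receptors sense oxysterols and switch on export of cholesterol through the transporters Abca1 and Abcg1 to lipoprotein particles that hold apolipoprotein E. Excess cholesterol is esterified by Soat1, and triglyceride is made by the Dgat enzymes and kept in droplets coated by Plin2. m6A sits mainly near stop codons and in 3' UTRs of messenger RNAs, often within the letters GGACT, and is known to affect how long a transcript persists.

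With 1 library per group there is no spread between replicates, and every difference below compares these libraries. The p-values are the authors' own and rest on the reads of single libraries. The depth behind a value is unknown, as read totals were not analysed here. Whether the genotype labels hold was not checked, as the input level of Mettl3 was not analysed here. Of 7 macrophage markers (Csf1r, Adgre1, Cd68, Lyz2, Mertk, Fcgr1 and Itgam) 7 had a peak in both genotypes. Of the 14798 gene symbols with a peak in either genotype, 88% did. Input levels of the markers are given below. How IP was scaled to input is not given in the sources used here, and a shift shared by all sites would not show.

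The lipid genes carried m6A peaks in both genotypes, mostly in 3' UTRs. A peak is a stretch of transcript where IP reads exceed input reads, and its enrichment is the log2 of IP over input, a value the authors computed. All genes, in shares with a peak or a differential peak, means the 14798 symbols with a peak in at least 1 list. The WT list held 90 peaks in 37 of the 38 genes, where 93.5% of all genes had a peak. The cKO list held 115 peaks in 37, where 94.5% did. That is 2.43 and 3.11 peaks per gene, against 2.64 and 2.77 over all genes. Peaks were present in both genotypes in 36 of the 38 genes, as in 88% of all genes. Fdps, which encodes farnesyl diphosphate synthase, had peaks in the cKO list alone. Apoc1, which encodes an apolipoprotein of the same gene cluster as Apoe, had a peak in the WT list alone. More peaks were listed in the cKO in 18 genes, fewer in 4 and equally many in 16, while 35.5% of all genes had more and 28.0% fewer.

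The median enrichment of the genes' peaks was 1.14 in WT and 1.12 in cKO, against 1.22 and 1.30 over all peaks. By role, the WT and cKO medians were 1.0 and 1.04 for SREBP regulators and 1.06 and 0.92 for sterol synthesis. They were 1.24 and 1.31 for fatty acid synthesis, 1.18 and 1.29 for LXR and efflux, and 1.13 and 1.29 for uptake, storage and oxidation. Sterol synthesis was thus the role with the lowest median in the cKO. The strongest peak of the whole set in both lists was that of Lpl, the lipase that frees fatty acids from lipoproteins, at 4.18 in WT and 4.08 in cKO.

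In the WT list 61 of the 90 peaks, or 67.8% (95% exact Clopper-Pearson interval 57.1 to 77.2), were annotated by the authors to 3' UTRs, against 56.2% of all WT peaks. In the cKO list the share was 60.9% (51.3 to 69.8; 70 of 115 peaks), against 55.7%. The WT interval lies above the share of all WT peaks and the cKO interval includes that of all cKO peaks. These intervals cover counting error only and treat peaks of the same gene as independent. The bases are also unlike. Of all peaks, 2666 of 36507 in WT and 2870 of 38697 in cKO had another annotation than these regions or introns, against 1 lipid gene peak in each list. The WT excess in 3' UTRs is thus not a like comparison. Every one of the 37 genes with a WT peak had a 3' UTR peak there, and 35 of the 37 genes with a cKO peak did. Other exonic sequence held 21.1% of the WT peaks (against 22.9% of all) and 18.3% of the cKO peaks (22.7%), and 5' UTRs 8.89% (9.04%) and 11.3% (9.09%), with intervals that include those shares. Intronic peaks numbered 1 in the WT list (1.11%, against 4.58% of all WT peaks) and 10 in the cKO list (8.70%, 4.25 to 15.4, against 5.15%). Of the 10, 5 lay in SREBP regulators, 4 in genes of uptake, storage and oxidation and 1 in Fdps. The cKO peaks of fatty acid synthesis and of LXR and efflux genes included 0 intronic peaks.

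**Figure D1:**
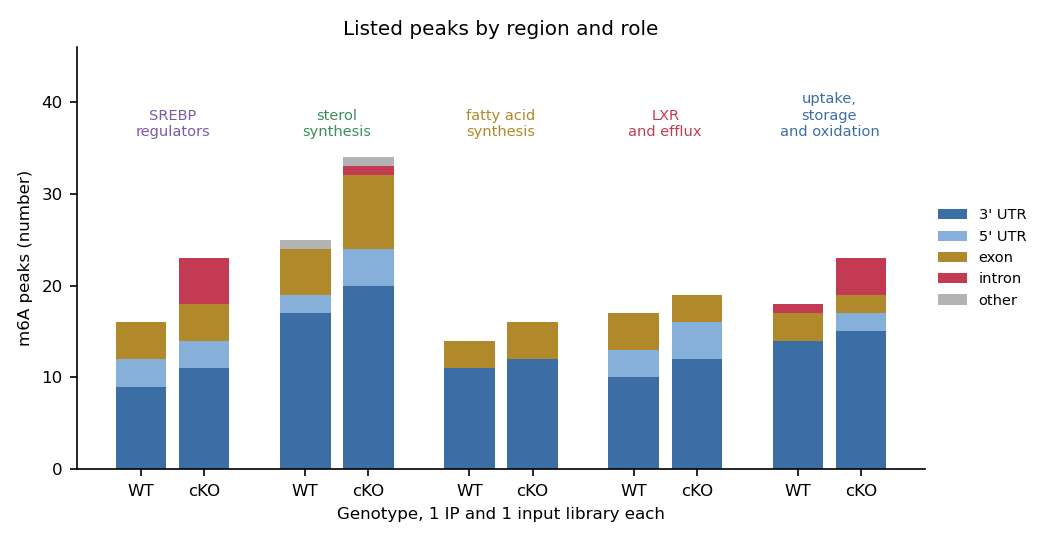
Number of listed m6A peaks (vertical axis) per genotype and role, stacked by the region the authors gave; each bar comes from 1 IP and 1 input library. The 3' UTR part is the largest in every bar, and intronic peaks are 1 in the WT bars and 10 in the cKO bars.

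Of the WT peaks, 75.6% (65.4 to 84.0; 68 of 90) overlapped a cKO peak on the same strand by at least 1 bp, against 73.2% of all WT peaks. Of the cKO peaks, 61.7% (52.2 to 70.6; 71 of 115) overlapped a WT peak, against 71.3% of all cKO peaks. The interval of the second share lies below the value over all peaks, while that of the first includes it. Both intervals treat peaks as independent, though the 115 cKO peaks lie in 37 genes, and may be too narrow. They do not set the lipid genes apart from all genes. The 22 peaks of the WT list alone had a median of 0.77 against 1.22 for shared ones (0.95 against 1.31 over all genes), and the 44 of the cKO list alone had 0.82 against 1.32 (0.99 against 1.41). Some were strong, among them Apoc1 at 2.47 in the WT list and Elovl6 at 2.64, Fabp4 at 2.32 and Srebf1 at 2.19 in the cKO list. By role, 11 of 23 cKO peaks of SREBP regulators (47.8%, 26.8 to 69.4) and 20 of 34 of sterol synthesis genes (58.8%, 40.7 to 75.4) overlapped a WT peak. In Scap, the escort of SREBP, 4 of 5 cKO peaks had no WT partner, at 0.84 to 0.94.

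The input levels of the lipid genes that could be compared differed little between the 2 libraries, as did those of most genes. Input levels are FPKM, fragment numbers corrected for transcript length and sequencing depth, and were held only for genes with a listed differential peak, which are 23 of the 38. The difference is that of log2(FPKM + 1), cKO minus WT, given for the 21 genes with a mean of at least 1 FPKM. This scale understates the change of low genes. None of the 21 differed by 2-fold, while 0.411% of all 6079 genes so measured were higher by at least 2-fold and 0.428% lower by as much. The median difference was -0.05 against -0.02 over all genes, with 12 genes lower and 9 higher, where 54.2% of all genes were lower. In the authors' deposited table the lowest p for a change in level among the 23 genes was 0.544, every q was 1, and 0 of the 23 were called, against 0.616% of all genes. In bulk RNA, fewer cells of a type and less RNA per cell cannot be told apart.

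Of the 3 SREBP regulators with a value, Srebf2 differed most. Srebf2, the factor that mainly drives sterol synthesis genes, was at 10.4 FPKM in WT and 12.6 in cKO (difference 0.26). Srebf1, which mainly drives fatty acid synthesis genes, was at 7.68 and 7.66. Mbtps1 was at 5.31 and 5.64.

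All 4 sterol synthesis genes with a value, of 10 in the role, were slightly higher in the cKO input, at a median of 0.14. Of all 6079 genes so measured, 54.2% were lower. The lowest of the authors' p-values for a change in level among the 4 was 0.625. Of 4 further genes listed with sterol synthesis, Msmo1 (0.34) and Sc5d (0.23) were higher and Nsdhl (-0.06) and Mbtps2 (-0.11) lower. Mbtps2 encodes an SREBP protease and no enzyme of sterol synthesis. Hmgcs1, which makes the HMG-CoA that feeds the pathway, was at 6.83 FPKM in WT and 7.52 in cKO (0.12). Sqle, the squalene epoxidase, was at 5.94 and 6.77 (0.16). Lss, which folds the epoxide into lanosterol, was at 1.75 and 1.95 (0.10), and Dhcr7, which makes cholesterol in the last step, at 2.12 and 2.63 (0.22). The 2 fatty acid synthesis genes with a value were low. Acaca, which makes malonyl-CoA, was at 1.86 and 1.69 (-0.09), and Fasn, the fatty acid synthase, at 1.02 and 0.82, below the mean level asked for.

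Among the 23 genes with a value, the highest were efflux and storage genes, though others of those roles were low. Values were held for 6 of 7 LXR and efflux genes and 8 of 9 of uptake, storage and oxidation. They were held for 3 of 6 SREBP regulators, 4 of 10 sterol synthesis genes and 2 of 6 fatty acid synthesis genes. The roles thus cannot be ranked by level. Apoe led both libraries with 928 FPKM in WT and 1136 in cKO (0.29), above 99.8% of the genes with a value. Abca1 was at 75.8 and 62.4 (-0.28) and Abcg1 at 22.1 and 21.4 (-0.05). Of the receptors, Nr1h2 (LXR beta) was at 19.1 and 18.2 (-0.06) and Nr1h3 (LXR alpha) at 3.15 and 2.84 (-0.11). Apoc1 was at 1.32 and 0.50, below the mean level asked for (-0.63, or -1.24 with a pseudocount of 0.1). In this role 4 of 5 genes past that level were lower in cKO input, beside 54.2% of all genes. Apoe was the exception, and the median was -0.06.

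Among genes of uptake, storage and oxidation, 6 of 8 were lower in the cKO, beside 54.2% of all genes, and the median was -0.08. Lpl showed the largest difference of all 21 genes, with 114 FPKM in WT input and 85.9 in cKO input (-0.41). Plin2 was at 97.7 and 81.8 (-0.25), Soat1 at 55.5 and 52.3 (-0.09), Dgat1 at 6.59 and 6.22 (-0.07) and Dgat2 at 1.14 and 0.87 (-0.19, or -0.36 with a pseudocount of 0.1). Cpt1a, which lets fatty acids into mitochondria for oxidation, was at 4.70 and 4.49 (-0.06). The fatty acid carriers were the 2 genes on the other side, Fabp5 at 117 and 147 (0.33) and Fabp4 at 5.01 and 5.45 (0.10). The 8 highest of the 23 genes came in the same order in both inputs, from Apoe over Fabp5, Lpl, Plin2, Abca1, Soat1 and Abcg1 to Nr1h2, and the 8 belong to LXR and efflux or to uptake and storage. With no replicates, whether neighbours in that order differ beyond their spread cannot be said.

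**Figure D2:**
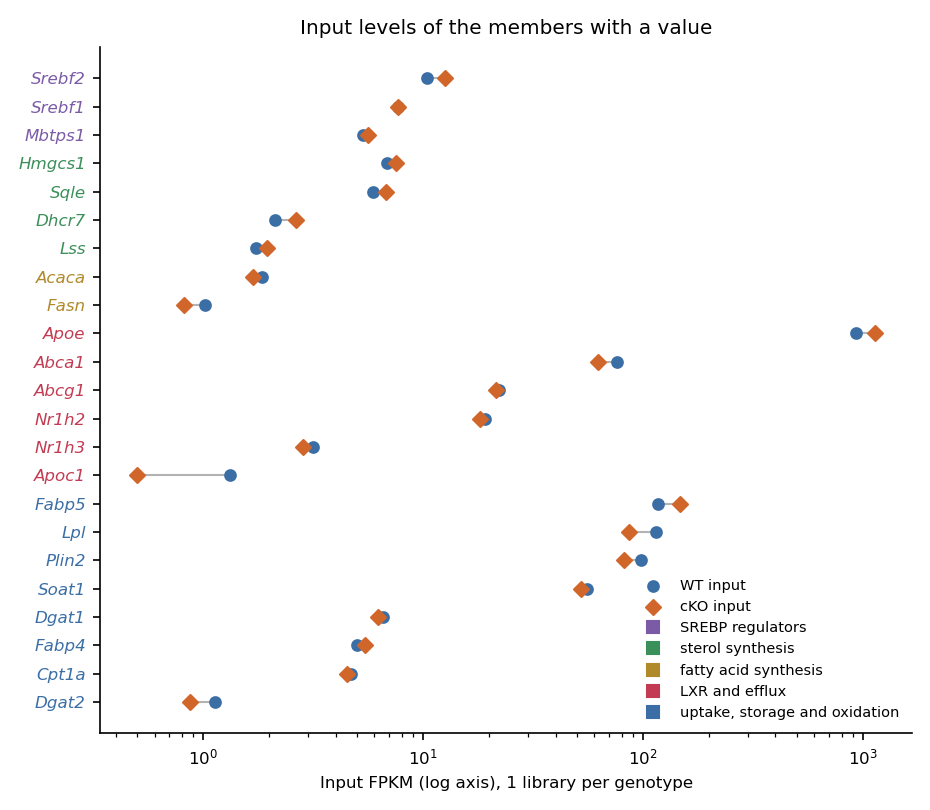
Input FPKM (log axis) of the 23 lipid genes with a value, WT as circles and cKO as diamonds, 1 library each, gene names coloured by role. The 2 marks lie close together for nearly all genes, and Apoe stands apart at 928 and 1136 FPKM.

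Several markers of the cell types the cultures could hold differed more between the inputs than any of the 21 lipid genes. Among them were the macrophage markers Mertk (-0.79), Lyz2 (-0.78), Adgre1 (-0.44) and, on the other side, Fcgr1 (0.47). Sparc, a mesenchymal marker, differed by 1.02. Of the 7 macrophage markers 6 had an input value and 4 of the 6 were lower in the cKO. The summed level of the 6 was 4510 FPKM in WT and 2986 in cKO, most of it Lyz2 (3393 and 1980). Lyz2 is the lysozyme M gene, whose promoter drives Cre in the cKO alone. The effect of that allele on the Lyz2 level was not tested. Of the other markers, Cd68 was at 695 and 634 and Itgam at 179 and 188. Of 7 mesenchymal markers (Col1a1, Col3a1, Sparc, Dcn, Pdgfra, Pdgfrb and Acta2) 6 had a value and 5 were higher in the cKO, with a sum of 112 and 199.9 FPKM. Of 8 epithelial and carcinoma markers 4 had peaks in each list, and the 1 with an input value, Krt19, was at 7.05 and 10.8 FPKM. Adipocytes also use Lpl, Fabp4, Plin2 and Pparg, and 0 of 7 adipocyte markers (Adipoq, Plin1, Lep, Cidec, Cidea, Retn and Cfd) had a peak in either list. These 7 had no input value, and a missing peak does not show that a transcript was absent. The part of these other cells in the lipid gene values was not tested.

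The authors' deposited table of differential peaks lists those where the enrichment differed between the genotypes at p below 0.05, and holds 37 peaks in 23 of the 38 lipid genes, or 60.5% (43.4 to 76.0) against 49.9% of all genes. At the authors' adjusted p below 0.05, the authors' deposited table holds 19 of these peaks in 14 genes, or 36.8% (21.8 to 54.0) against 30.8%. The 19 stand beside 53.3% of all listed peaks. Both intervals include the share over all genes. Of the 37 peaks in the authors' deposited table, 20 were higher in the cKO and 17 lower, where 48.9% of all listed peaks were higher and 51.1% lower. At the adjusted p the authors' deposited table holds 10 higher and 9 lower, where all peaks split 45.7% and 54.3%. In 13 of the 37 peaks of the authors' deposited table, IP lay below input in 1 genotype, against 13.9% of all its peaks, and without these 13 there were 14 higher and 10 lower.

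By role, the authors' deposited table gave 4 higher and 2 lower peaks in SREBP regulators, 2 and 3 in sterol synthesis, 1 and 3 in fatty acid synthesis, 5 and 6 in LXR and efflux, and 8 and 3 in uptake, storage and oxidation. At the adjusted p, LXR and efflux genes held 9 of the 19 peaks of the authors' deposited table, 5 higher and 4 lower. Sterol synthesis held 1 and fatty acid synthesis 1. Of 8 genes with at least 2 listed peaks, 6 had peaks in both directions, Abca1, Abcg1, Acaca, Cpt1a, Lss and Mbtps1, against 49.1% of all such genes in the authors' deposited table. The exceptions were Fabp5, with higher peaks alone, and Nr1h3, with lower peaks alone.

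**Figure D3:**
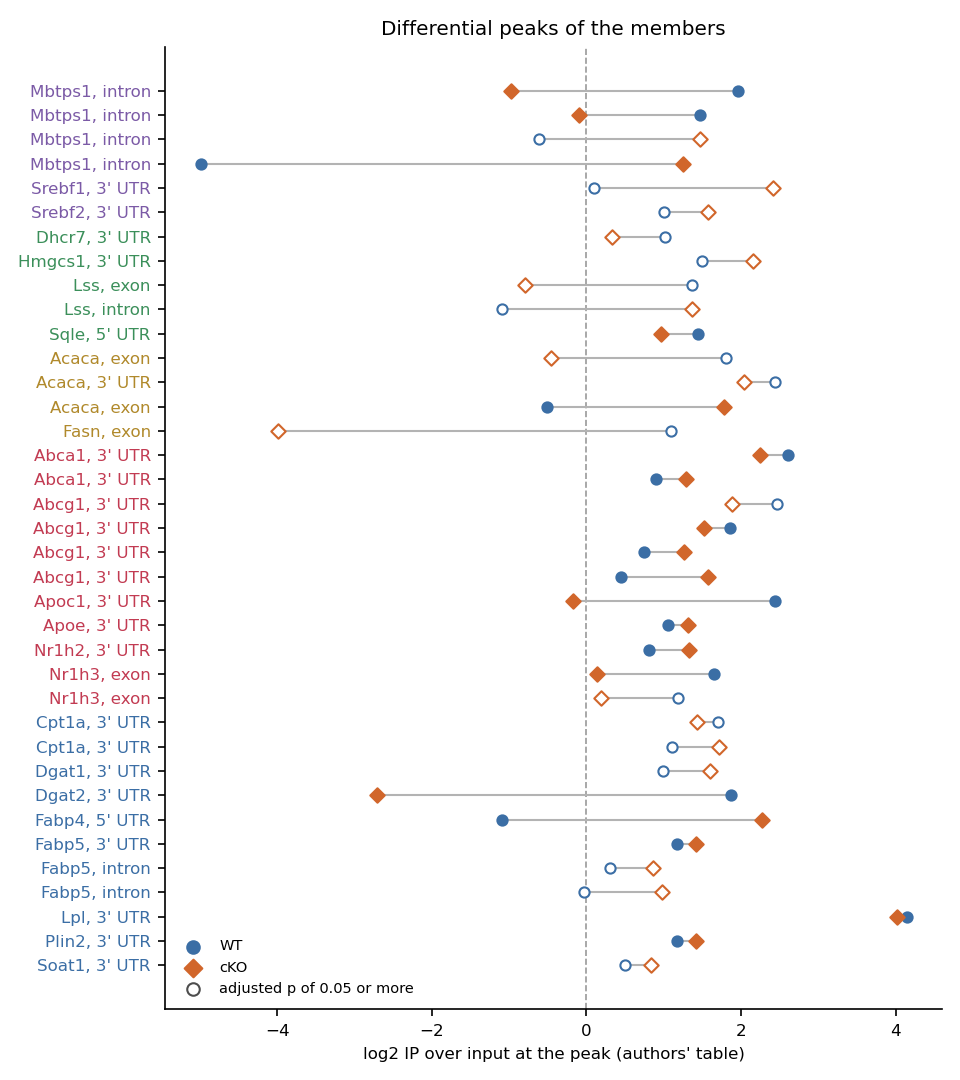
Enrichment (log2 IP over input) of the 37 differential peaks of the lipid genes in the WT (circles) and the cKO (diamonds), from the authors' deposited table, labelled by gene and region and coloured by role; open marks have an adjusted p of 0.05 or more. The longest lines, in Mbtps1, Fasn and Dgat2, have 1 end below 0, where IP is under input.

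Among SREBP regulators, 3 of 6 genes had differential peaks, beside 49.9% of all genes. At the adjusted p 1 had one, beside 30.8%. In Mbtps1 the authors' deposited table lists 4 intronic peaks, each with IP below input in 1 genotype, at differences of 2.08, 6.25, -1.57 and -2.94. The 2 main peaks of that gene differed less, the one across the stop codon at 2.88 in the WT list against 2.91 in the cKO list, and the one in the 5' UTR at 2.20 and 2.01. For Srebf1, the authors' deposited table gives a peak in the last 250 bases of the 3' UTR (chr11:60199089-60199338, mm10) at 0.10 in WT and 2.42 in cKO (adjusted p = 0.0847). It overlaps that gene's strongest cKO peak and no WT peak. The other 3' UTR peak of Srebf1 was at 1.17 and 1.20 in the peak lists. For Srebf2, the authors' deposited table gives the gene's strongest WT peak, in the 3' UTR, at 1.01 and 1.58 (adjusted p = 0.173). Insig1, Insig2 and Scap had 0 differential peaks, and their 5 peaks that matched one to one differed by -0.02 to 0.10.

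Of 10 sterol synthesis genes 4 had a differential peak, beside 49.9% of all genes, and 1 had one at the adjusted p, beside 30.8%; the difference was not tested. That one lies in Sqle at the 5' UTR and the start of the coding sequence (chr15:59315452-59317842), at 1.44 in WT and 0.96 in cKO in the authors' deposited table (adjusted p = 0.00845). In Dhcr7 a peak across the stop codon was at 1.02 and 0.34 in the authors' deposited table (adjusted p = 0.0785). In Hmgcs1 the peak at the end of the 3' UTR was at 1.49 and 2.16 in the authors' deposited table (adjusted p = 0.110). For Lss, the authors' deposited table holds a peak at 1.36 and -0.80 (adjusted p = 0.0658) and an intronic one at -1.09 and 1.37 (adjusted p = 0.166). Mvk, Mvd, Idi1, Fdps, Fdft1 and Cyp51 had 0 differential peaks. Mvk, the mevalonate kinase, had its strongest peak at 2.04 in WT and 2.38 in cKO. Cyp51, which removes a methyl group from lanosterol, had its strongest peak at 2.04 and 1.30.

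Of 6 fatty acid synthesis genes 2 had a differential peak, beside 49.9% of all genes. At the adjusted p 1 had one, beside 30.8%. The authors' deposited table lists 3 peaks of Acaca. The one across the stop codon and the whole 3' UTR was at 2.44 in WT and 2.05 in cKO in the authors' deposited table (adjusted p = 0.0551). The other 2, in exons, had IP below input in 1 genotype and opposite directions in the authors' deposited table, -2.27 (adjusted p = 0.137) and 2.28 (adjusted p = 0.0359). The peak of Fasn in the authors' deposited table overlapped no peak of either list and stood at 1.10 and -3.99 (adjusted p = 0.0955). Elovl6, which lengthens palmitate, had 0 differential peaks although it carried the second strongest peak of the set in the WT, at 3.10, and 2.64 at another place in the cKO. Scd1 and Scd2, which put a double bond into stearate, and Acly, which makes cytosolic acetyl-CoA, also had 0, with strongest peaks of 1.02 to 1.28 in the WT and 1.23 to 1.37 in the cKO.

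Of 7 LXR and efflux genes 6 had a differential peak, beside 49.9% of all genes. At the adjusted p 6 had one, beside 30.8%, and the difference was not tested. This role held the 2 differential peaks with the smallest p-values of the lipid genes, in Apoe and Abca1. Abca1, the transporter that loads cholesterol onto lipid-poor apolipoproteins, had its main peak across the stop codon and over 1831 bases of 3' UTR (chr4:53032112-53040803). In the authors' deposited table it was at 2.61 in WT and 2.25 in cKO (adjusted p = 3.56e-30). A second Abca1 peak, in the last 325 bases of the 3' UTR, was at 0.90 and 1.29 in the authors' deposited table (adjusted p = 0.000387). The same transcript thus had a lower and a higher peak.

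Abcg1, which passes cholesterol to mature lipoprotein particles, had 4 peaks in the authors' deposited table. The peak across its stop codon was at 1.86 and 1.52 in the authors' deposited table (adjusted p = 1.17e-06) and the next one downstream at 0.75 and 1.26 (adjusted p = 0.000993). The peak at the very end of the 3' UTR was at 2.46 and 1.88 in the authors' deposited table (adjusted p = 0.167), and one in the 3' UTR of a short isoform at 0.45 and 1.58 (adjusted p = 0.00757).

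Apoe, the most abundant of the transcripts, had 1 differential peak, which covers 724 coding bases and the 271 bases of the 3' UTR (chr7:19696109-19697258). It was at 1.05 in WT and 1.31 in cKO in the authors' deposited table (difference 0.26, adjusted p = 5.53e-95). That is the smallest p among the 37 peaks beside a small difference, in the gene with the highest input level. Apoc1 was at 2.44 and -0.17 in the authors' deposited table (adjusted p = 0.0303), in a transcript below 2 FPKM in both inputs. Nr1h2 had a 3' UTR peak at 0.81 and 1.32 in the authors' deposited table (adjusted p = 0.00959). Nr1h3 had 2 exonic peaks that were lower in the cKO in the authors' deposited table, at 1.65 and 0.14 (adjusted p = 0.000394) and at 1.18 and 0.19 (adjusted p = 0.0946). In the peak lists the 5' UTR peak of Nr1h3 went the other way, at 1.73 in WT and 2.73 in cKO, as did its 3' UTR peak at 1.33 and 2.11. Mylip, a ubiquitin ligase that LXR induces, had 0 differential peaks, with its strongest peak at 2.01 and 2.02.

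Of 9 genes of uptake, storage and oxidation 8 had a differential peak in the authors' deposited table, beside 49.9% of all genes. At the adjusted p 5 had one, beside 30.8%, and the difference was not tested. The peaks numbered 11, of which 5 passed the adjusted threshold. Lpl had 1 peak, which runs from the last coding bases over all 2428 bases of the 3' UTR (chr8:68901300-68907445) and was at 4.14 in WT and 4.02 in cKO in the authors' deposited table (adjusted p = 2.91e-13). The difference of -0.13 is the smallest in size of the 37. The 3' UTR peaks of Fabp5 (1.17 and 1.42, adjusted p = 3.86e-10) and Plin2 (1.17 and 1.41, adjusted p = 0.00356) were both higher in the cKO in the authors' deposited table. So were 2 intronic peaks of Fabp5 in the authors' deposited table, by 1.01 (adjusted p = 0.120) and 0.56 (adjusted p = 0.0988).

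Cpt1a had a lower peak across the stop codon, at 1.71 and 1.43 in the authors' deposited table (adjusted p = 0.140), and a higher one at the end of the 3' UTR, at 1.11 and 1.72 (adjusted p = 0.136). Dgat1, at 0.99 and 1.60 (adjusted p = 0.135), and Soat1, at 0.49 and 0.84 (adjusted p = 0.152), had higher 3' UTR peaks in the authors' deposited table. The peaks of Dgat2 (1.87 and -2.71, adjusted p = 0.0333) and Fabp4 (-1.09 and 2.28, adjusted p = 0.0494) in the authors' deposited table had IP below input in 1 genotype. The authors annotate that Dgat2 peak to the 3' UTR, while its 150 exonic bases are coding in the GENCODE transcript. Pparg, the nuclear receptor of lipid storage, had 0 differential peaks, and its 3' UTR peak was at 1.23 and 1.32 in the lists.

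Direction was next set beside position along the transcript, a split chosen after the values were seen. Peaks were placed on GENCODE M21 coding transcripts (mm10). Of the 10 differential peaks that span a stop codon, 8 were lower in the cKO in the authors' deposited table, those of Abca1, Abcg1, Acaca, Apoc1, Cpt1a, Dhcr7, Lpl and Lss, and 2 higher, those of Apoe and Fabp5. The Lss peak spans the stop codon of a short isoform with a 3' UTR of 224 bases and is annotated exonic by the authors. Of all 3314 such peaks, 68.7% were lower in the authors' deposited table. Of the 12 that lie wholly in the 3' UTR, 1 was lower in the authors' deposited table, the end peak of Abcg1, and 11 were higher, while 28.3% of all 3107 such peaks were lower. Of these 11, 7 reached the last base of the transcript, against 51.4% of all higher peaks wholly in a 3' UTR. The 2 kinds also differed in strength, with a median WT enrichment of 1.78 at stop codons and 0.95 in the 3' UTR alone (2.04 and 1.01 over all genes). Abca1, Abcg1 and Cpt1a had both kinds, and in all 3 the peak at the stop codon was lower and a downstream one higher. Of the 599 genes with both kinds in the authors' deposited table, 63.4% showed this.

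**Figure D4:**
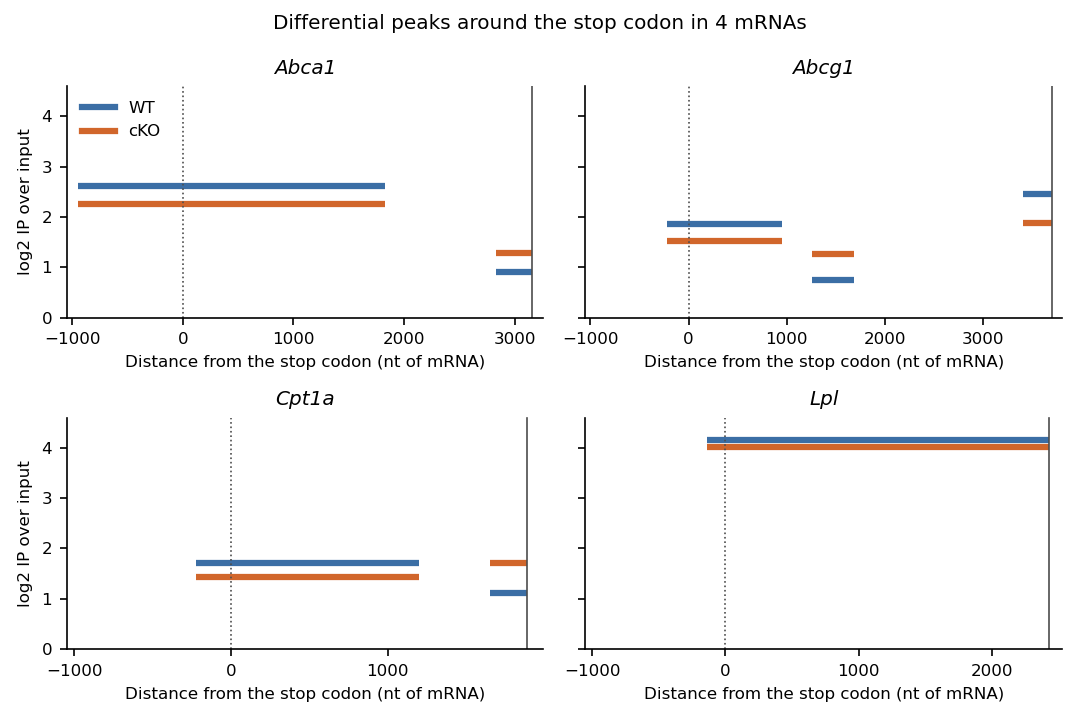
Differential peaks of Abca1, Abcg1, Cpt1a and Lpl by distance from the stop codon in nucleotides of mRNA (dotted line, stop codon; solid line, transcript end) and by log2 IP over input, from the authors' deposited table, 1 library pair per genotype. At the stop codon the WT line lies above the cKO line in the 4 genes drawn, from 1.71 against 1.43 in Cpt1a to 4.14 against 4.02 in Lpl. Apoe and Fabp5, whose stop codon peaks were higher in the cKO, are not drawn. The Abcg1 peak on a short isoform is also left out.

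The letters GGACT, searched on the sense strand of the transcript, were found in 7 of the 15 differential peaks with exonic sequence that were lower in the cKO and in 0 of the 15 that were higher. Over all differential peaks 60.0% of the lower and 28.0% of the higher ones held GGACT. The lower peaks are also longer, with a median of 450 exonic bases against 300 in the lipid genes and 800 against 300 over all genes. Of the lipid genes' listed peaks with exonic sequence, 32.2% of 87 held GGACT in the WT and 28.4% of 102 in the cKO, against 37.6% and 36.4% over all genes. One GGACT per gene, the one nearest the middle of the peak, is printed for the 7 genes that had one in a differential peak, with 10 bases on each side, the match in capitals and the positions in mm10.
Abca1, 3' UTR, chr4:53032802-53032826, minus strand: gaatgtgcccGGACTgcctcatgcc
Lpl, coding sequence, chr8:68902322-68902346, plus strand: agaagggaaaGGACTcagcagtgtt
Abcg1, 3' UTR, chr17:31114831-31114855, plus strand: acttcttgagGGACTtattcagggt
Nr1h3, coding sequence, chr2:91190208-91190232, minus strand: ccttcctcaaGGACTtcagttacaa
Sqle, coding sequence, chr15:59315839-59315863, plus strand: tgagccatgtGGACTtttcttggca
Acaca, 3' UTR, chr11:84401079-84401103, plus strand: gacatccaagGGACTatagatgcaa
Cpt1a, 3' UTR, chr19:3384188-3384212, plus strand: tggatacttgGGACTtgacttcacc
Counted from the end of the stop codon, the A of the match is at base 359 of the 3' UTR in Cpt1a, 558 in Abcg1, 1129 in Abca1 and 1408 in Acaca. In Lpl it lies at position -52, in the coding sequence just before the stop codon. The peaks hold 1 GGACT in Lpl, Nr1h3 and Sqle, 2 in Abca1, Abcg1 and Cpt1a, and 5 in Acaca. A match is common at these lengths. Of transcript windows as long as the peak, 94.3% hold GGACT for Abca1 (2775 exonic bases), 93.0% for Lpl, 89.9% for Acaca, 78.0% for Cpt1a, 71.7% for Abcg1, 54.0% for Sqle and 39.1% for Nr1h3 (461 bases).

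Peaks that matched one to one between the lists allow a comparison that does not depend on the authors' differential call. There were 57 in the lipid genes, with a median difference, cKO minus WT, of 0.04, the same as over all 19387 such peaks. Of the 57, 22 were lower in the cKO and 35 higher, where 45.2% of all were lower and 54.8% higher. Sterol synthesis was the role with the most lower peaks, 9 of 14, with a median of -0.06. The others had 4 of 11 lower among SREBP regulators (median 0.03), 4 of 9 in fatty acid synthesis (0.01), 3 of 11 in LXR and efflux (0.29) and 2 of 12 in uptake, storage and oxidation (0.25). These counts are small, and with 1 library pair per genotype no test of the difference between roles could be made.

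The largest differences at single matched peaks were in Elovl6, from 3.10 in WT to 1.99 in cKO, and in Nr1h3 and Dgat2 on the other side. The 5' UTR peak of Nr1h3 was at 1.73 and 2.73, and the 3' UTR peak of Dgat2 at 0.98 and 1.81. The strongest peak of Cyp51 was lower in the cKO, at 2.04 and 1.30. These pairs needed only 1 bp of overlap, and each value covers its own list's stretch. In exonic bases, the WT and cKO stretches held 550 and 775 in Elovl6 and 175 and 400 in Cyp51. They held 284 and 305 in Nr1h3 and 200 and 325 in Dgat2. The authors list none of these matched peaks as differential. How far peak boundaries set these differences was not tested. In uptake, storage and oxidation the 2 lower matched peaks were the 3' UTR peak of Lpl (4.18 and 4.08) and an intronic one of Fabp5 (0.87 in both). Over each gene's strongest peak, which may lie in different places, 22 of 36 genes were higher in the cKO and 14 lower, while 50.5% of all genes were higher.

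**Figure D5:**
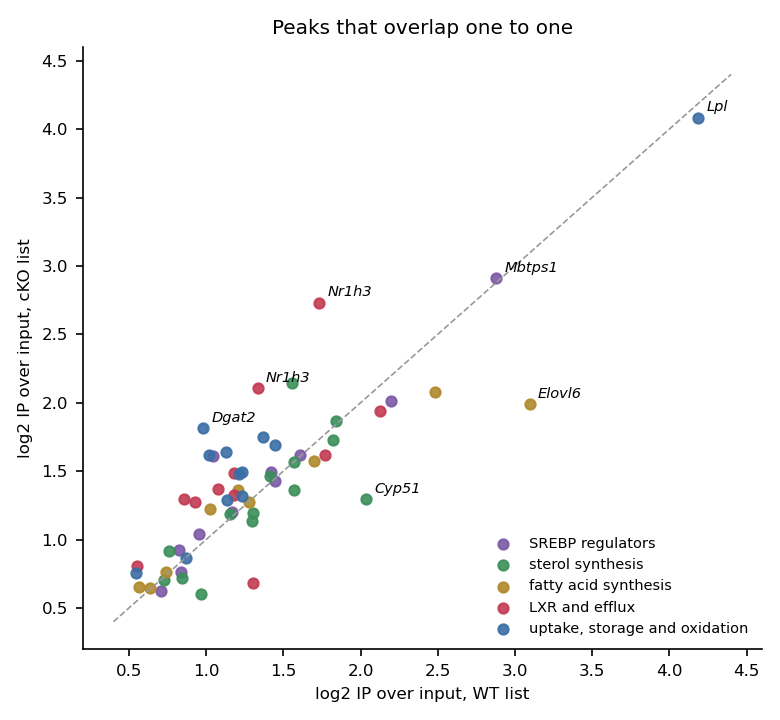
Enrichment (log2 IP over input) in the WT list against the cKO list at the 57 lipid gene peaks that overlap one to one, 1 library pair per genotype, coloured by role, with the line of equal values. Lpl at 4.18 and 4.08 and Mbtps1 at 2.88 and 2.91 lie near the line, and Elovl6 at 3.10 and 1.99 lies below it.

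Of 58 other genes of the same pathways, in 4 lists, 54 had peaks in each genotype. In the authors' deposited table they had 49 differential peaks, 30 higher and 19 lower. Of all listed peaks 48.9% were higher and 51.1% lower. Of the 28 other genes with a mean input of at least 1 FPKM, 13 were higher in the cKO and 15 lower, at a median of -0.02, and 0 differed by 2-fold. In each list the gene with the largest difference was Acsl1, an acyl-CoA synthetase, at 23.3 FPKM in WT and 12.6 in cKO (-0.84), Fads1, a fatty acid desaturase, at 5.10 and 9.42 (0.77), Ch25h, which makes an oxysterol, at 4.18 and 2.83 (-0.43), and Msmo1, of sterol synthesis, at 4.76 and 6.30 (0.34). The 2 lower genes of the further sterol synthesis list were Nsdhl (-0.06) and Mbtps2 (-0.11), the second of which encodes an SREBP protease. The authors' deposited table gives every one of the 4 genes of largest difference a q of 1.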

How the data were processed

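The values start from the tables the authors deposited. Per the submitters' processing notes, edgeR, StringTie, ChIPseeker, HOMER, HISAT2 and fastp were used with build mm10; roles, versions and order are not stated. The peak caller is not given in the sources used here. Per the file headers, the deposited peak lists give the log2 of IP over input with p-values and adjusted p-values. The deposited differential peaks carry the log2 value of each genotype, the difference and the authors' p-values, and a further table the input FPKM the authors computed. Every listed differential peak has p below 0.05.

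Peaks were matched by gene symbol and compared on the same strand with an overlap of at least 1 bp, with pandas 2.3.3 and Python 3.11.15. FPKM were compared as log2(FPKM + 1) at a mean of at least 1. The overlap and difference steps were tested on simulated data. Starts in the tables count from 0 and are printed 1-based. Of the authors' transcripts 99.4% matched GENCODE M21, and a peak was placed on the coding transcript of its gene with the most exonic bases in it. Sequences are from GENCODE M21 transcripts and were compared with RefSeq promoter windows over 2223 bases, of which 100% were identical. Introns were not searched.

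With 1 library per group no further p-value was computed, and no interval covers more than counting error. Values are given for genes with a differential peak or an input level. The 3 strongest of the other genes per genotype are named, as are single peaks chosen after their values were seen. One gene of the marker lists is not reported here. The genes, roles and lists were chosen with earlier results of these data known. Alternatives were other overlaps, p and enrichment thresholds, pseudocounts, filters and centring. Restricting to peaks with IP above input in both genotypes, or to 3' UTR peaks, was added after seeing the data.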

Additional observations from a re-analysis of the deposited data

How the results depend on the processing

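Of 44 alternatives to the summary values, 30 stayed within the value's 95% interval, the range of its genes where under 6, or 1.5 times for counts, and 14 did not. An overlap of 50% of both peaks gave 50.0% for the WT peaks and 39.1% for the cKO peaks. The strongest peak of each gene had medians of 1.56 and 1.62. At 2-fold enrichment the cKO share in 3' UTRs was 75.0%. The median at matched peaks turned from 0.04 to -0.0061 after centring. Counts of higher differential peaks were 10 at the adjusted p and 8 at a difference of at least 1, and of lower ones 9 and 8, and 10 with IP above input in both genotypes. The fatty acid synthesis value rests on 1 gene and became -0.13 with a pseudocount of 0.1, -0.12 unfiltered (2 genes) and -0.068 centred; at a mean of 5 FPKM no gene was left. For single genes, 45 of 46 alternatives kept the sign, and Srebf1, at -0.0041, became positive (0.016) when centred. A pseudocount of 0.1 moved 3 low genes by over 1.5 times, Apoc1 from -0.63 to -1.24, Dgat2 from -0.19 to -0.36 and Fasn from -0.15 to -0.28. Centring moved the small differences of Abcg1 (-0.05 to -0.03) and Cpt1a (-0.06 to -0.04) as much. The causes of these shifts were not tested. No paired analysis was possible because each group has 1 library, and for the same reason no library could be left out. Read depth is unknown, so no limit of detection can be given.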
